A study of Mus musculus with 4 samples.

Results

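The 39 genes described here encode nuclear subunits of mitochondrial respiratory complexes III (9 genes), IV (14 genes) and V (15 genes) together with cytochrome c (1 gene, Cycs). They were chosen by name, as subunits of these complexes, from the 55573 Ensembl genes in the deposited counts. Each symbol was matched to 1 Ensembl mouse gene. Atp5o had a second ID for an overlapping locus, with 0 counts in every library, and the ID ENSMUSG00000022956 was used. RNA came from quadriceps muscle of mice aged 7 weeks on regular chow. The 2 knockout (KO, vdr-/-) libraries came from the strain B6.129S4-Vdrtm1Mbd/J, which lacks a functional vitamin D receptor, and the 2 wild-type (WT) libraries from C57BL/6J. The strain carries the mutation in all tissues, so effects that arise in muscle and effects that come from other organs cannot be told apart. The labels do not say that the libraries of a group came from separate animals, so the p-values given here rest on differences between libraries that could be technical replicates.

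Complex III passes electrons from ubiquinol to cytochrome c, a small soluble haem protein, and complex IV (cytochrome c oxidase, COX) passes them on to oxygen. Both pump protons across the inner mitochondrial membrane, and complex V, the ATP synthase, lets these protons back to make ATP. The catalytic core of complex IV and parts of complexes III and V are encoded by mitochondrial DNA, while the subunits described here are encoded in the nucleus and imported. Some complex IV subunits exist as pairs of isoforms, one made in most tissues and the other chiefly in heart and skeletal muscle: Cox6a1 and Cox6a2, Cox7a2 and Cox7a1, Cox8a and Cox8b. In rodents Cox7a1 and Cox8b are also abundant in brown fat.

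Total counts were 21.34 M and 11.21 M in KO replicates 1 and 2, and 10.79 M and 13.03 M in WT replicates 1 and 2. The 39 genes together held between 0.991% and 1.11% of the counts of a library, and each had at least 311 counts in every library. CPM below is the count scaled to library size with TMM factors. All 8 muscle fibre markers were detected in every library, summing to 76537 and 76929 CPM in KO and 88136 and 82155 CPM in WT, and edgeR called 0 of them. DESeq2 called 1, Ttn, which encodes the giant sarcomere protein titin and had 16101 and 17344 CPM in KO, against 23784 and 23157 CPM in WT (edgeR log2 fold change -0.49 ± 0.14, unadjusted p = 0.00391, adjusted p = 0.0985). Markers of slow fibres, 8 genes, summed to 205 and 110 CPM in KO, against 122 and 155 CPM in WT. Neither edgeR nor DESeq2 called any of these slow-fibre genes. The part of fibre type in the values of the 39 genes was not tested. The groups differed in sex by their sex-linked genes: Xist, expressed from the inactive X chromosome of females, had 0 and 0.256 CPM in KO, against 183 and 217 CPM in WT, so genotype and sex cannot be told apart. Ddx3y, a gene of the Y chromosome, had 75.8 and 63.0 CPM in KO, against 4.74 and 0 CPM in WT, so WT replicate 1 held some Y-linked reads. The labels give no sex. Of 10 fat-cell markers, 10 were detected in every library and 9 were called higher in KO, with summed levels of 4859 and 4386 CPM in KO, against 1284 and 1469 CPM in WT. Markers of brown fat cells summed to 51.0 and 49.6 CPM in KO, against 7.77 and 55.7 CPM in WT, with Ucp1, the heat-producing carrier, detected in every library and Cpn2 at 0 in WT replicate 1. Of the 3 brown fat markers tested 0 were called by edgeR or DESeq2 and 0 had an unadjusted p below 0.05. In whole tissue, fewer cells of a type and less RNA per cell cannot be told apart.

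The ubiquitous isoform Cox6a1 was called higher in KO than in WT muscle in the main fit, but not in every setting run. The differences of the other 38 genes did not pass the test in the main fit. In edgeR's quasi-likelihood fit over 13076 genes, with p-values adjusted after Benjamini and Hochberg, 1 of the 39 was called at an adjusted p below 0.05 (2.56%), beside 2.47% of all genes tested (1.91% higher and 0.558% lower). The median log2 fold change (KO over WT) was 0.012 over the 39 genes and -0.00035 over all genes tested, and the 39 estimates ran from -0.33 to 0.74. At an unadjusted p below 0.05 there were 5 of the 39 (12.8%), beside 14.0% of all genes. Both KO libraries lay above both WT libraries for 9 of the 39 (23.1%, beside 23.0% of all genes) and below them for 6 (15.4%, beside 21.7%). Among the 1408 genes tested with a mean CPM at or above that of the lowest member, 6.25% were called, 22.7% had an unadjusted p below 0.05, and both KO libraries lay above both WT libraries for 21.2% and below them for 32.5%. The members' share of calls was thus near that of all genes. Their shares for calls and for lower KO values were below those of the 1408 genes. That set has no upper limit and includes genes with more reads than any member, and the members' share of calls rests on 1 gene. These shares are descriptions, and their differences were not tested. The standard error of a log2 fold change had a median of 0.135 over the 39 genes, and for 38 of them the 95% interval lay within -1 and 1. Changes of that size or larger in either direction were therefore outside the intervals of all but Cox6a1, whose interval reached 1.11. The DESeq2 Wald test also called Cox6a1 and no other member. The test could not exclude small changes, since 34 intervals included 0 and the widest, of Atp5e, ran from -0.84 to 0.24.

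**Figure D1:**
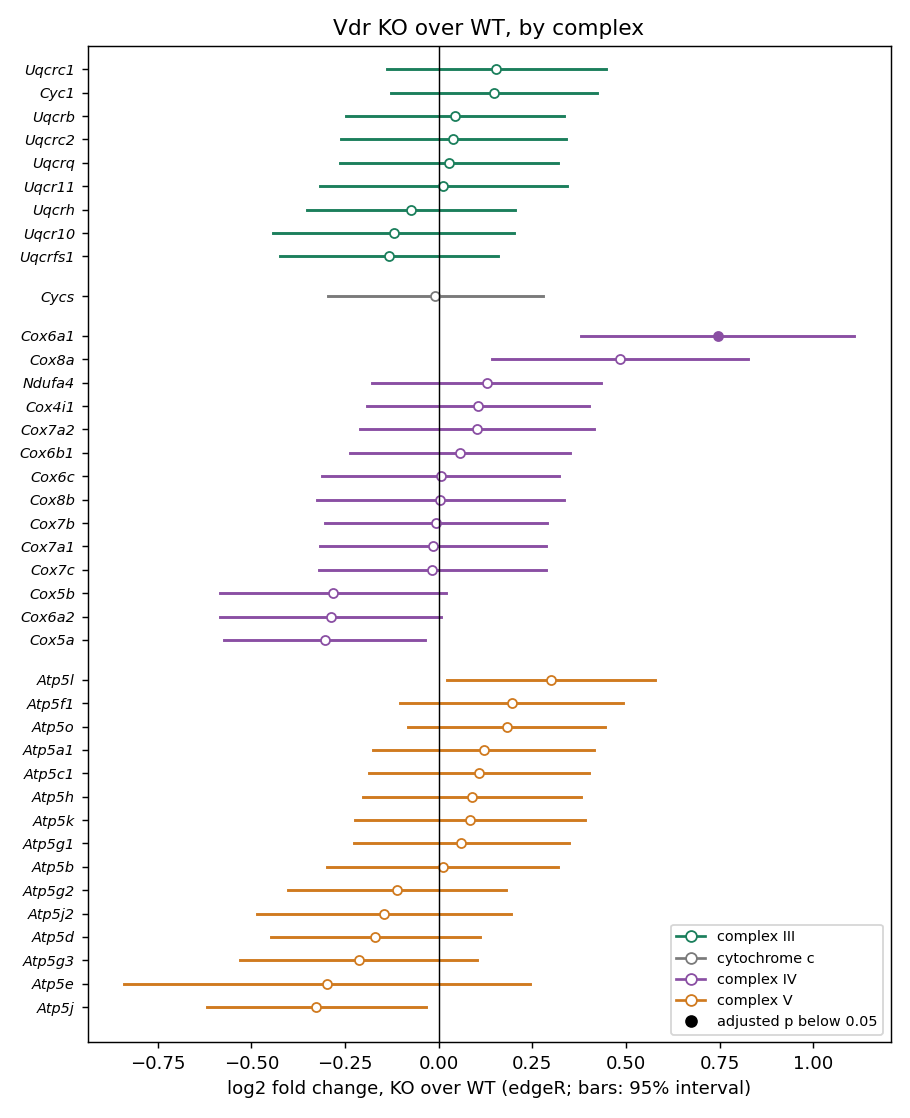
Log2 fold change (KO over WT) of each of the 39 genes with its 95% interval, grouped and coloured by complex, with 2 libraries in each group. The filled point marks the gene with an adjusted p below 0.05, Cox6a1 at 0.74, and 34 of the 39 intervals cross 0.

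The COX6A pair showed the widest gap between KO and WT. Cox6a1, the isoform of this complex IV subunit made in most tissues (ENSMUSG00000041697, chromosome 5, 115345642 to 115348981, GRCm38), had 57.3 and 63.8 CPM in KO, against 29.5 and 42.5 CPM in WT. Both KO libraries were above both WT libraries, and the WT libraries differed more from each other than the KO libraries did. Cox6a1 averaged 60.5 ± 4.60 CPM in KO and 36.0 ± 9.23 CPM in WT (SD, n = 2 each) and rose 1.68-fold in KO (95% interval 1.30 to 2.16; log2 fold change 0.74 ± 0.17 SE, edgeR adjusted p = 0.0418). The call was narrow. The edgeR adjusted p was 0.0825 when the quasi-likelihood step was not robust. Leaving out WT replicate 1 gave an adjusted p of 0.169, leaving out KO replicate 1 gave 0.107 and leaving out KO replicate 2 gave 0.130, while leaving out WT replicate 2 gave 0.00149. The log2 fold change lay between 0.51 and 1.03 in the 11 alternative settings run. With 1 library left in a group, that library was assumed to vary as the other group does. Fat-cell markers were higher in the same 2 KO libraries (9 of 10 called), as were red blood cell markers (3 of 5 called, summing to 549 and 389 CPM in KO, against 243 and 266 CPM in WT), and their part in the Cox6a1 result was not tested. Of the 50-base stretches in Cox6a1 transcripts, 12.3% also occur in 1 annotated pseudogene.

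Cox6a2, the heart and skeletal muscle isoform (ENSMUSG00000030785, chromosome 7, 128205435 to 128206387), had 322 and 355 CPM in KO, against 429 and 397 CPM in WT. Both KO libraries were below both WT libraries, but the difference did not pass the test (log2 fold change -0.29 ± 0.14, 95% interval -0.58 to 0.01, adjusted p = 0.373). Within a library, the ratio of Cox6a2 to Cox6a1 reads does not depend on scaling. It was 5.62 and 5.56 in the KO libraries, against 14.5 and 9.34 in the WT libraries, so the groups did not overlap and WT again held the wider spread. The mean log2 ratio was 2.48 ± 0.01 in KO and 3.54 ± 0.45 in WT, a difference of -1.06 (exact permutation test over 4 libraries, two-sided p = 0.333, the smallest that these 4 libraries allow; 0.5 after adjustment over the 3 pairs compared). Without WT replicate 1 the difference was -0.74. Per kilobase of transcript, Cox6a1 made up 17.5% and 17.6% of the pair in KO, against 7.57% and 11.3% in WT.

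The ratio within the COX8 pair differed in the same direction, by less. Cox8a, a small membrane subunit in the form that most tissues use (ENSMUSG00000035885, chromosome 19, 7215153 to 7217616), had 53.8 and 59.4 CPM in KO, against 33.8 and 46.9 CPM in WT. Both KO libraries were above both WT libraries, WT replicate 1 was the lowest, and the difference did not pass the test over all genes (log2 fold change 0.48 ± 0.16, 95% interval 0.14 to 0.83, adjusted p = 0.161). Leaving out WT replicate 2 gave an edgeR adjusted p of 0.0255, and so did testing with no filter on low counts. Leaving out WT replicate 1 gave an adjusted p of 0.704 and a log2 fold change of 0.27. Cox8b, the isoform of heart, skeletal muscle and, in rodents, brown fat (ENSMUSG00000025488, chromosome 7, 140898945 to 140900446), had 298 and 369 CPM in KO, against 358 and 308 CPM in WT, and the groups overlapped (0.00 ± 0.15, adjusted p = 0.993). The Cox8b to Cox8a read ratio was 5.54 and 6.21 in KO, against 10.6 and 6.56 in WT. The log2 ratios differed by -0.51 (exact permutation p = 0.333, adjusted 0.5), of which -0.16 was left without WT replicate 1. That same WT library had the lowest level of Cox6a1, and it also had the lowest sum of brown fat markers, 7.77 CPM, whose part in these ratios was not tested.

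The COX7A pair differed least. Cox7a1, the muscle isoform (ENSMUSG00000074218, chromosome 7, 30184144 to 30186078), had 239.8 and 277 CPM in KO, against 275 and 248 CPM in WT. Cox7a2, the isoform of most tissues (ENSMUSG00000032330, chromosome 9, 79755361 to 79759878), had 174 and 189 CPM in KO, against 188 and 151 CPM in WT. The groups overlapped for both genes, with log2 fold changes of -0.02 ± 0.14 (95% interval -0.32 to 0.29) and 0.10 ± 0.14 (-0.21 to 0.42) and adjusted p of 0.980 and 0.833 from edgeR. The read ratio of Cox7a1 to Cox7a2 was 1.38 and 1.46 in KO, against 1.46 and 1.65 in WT, and the log2 ratios differed by -0.13 (exact permutation p = 0.667, adjusted 0.667). In all 3 pairs the muscle isoform was the more abundant per kilobase in every library. The muscle isoform exceeded its partner 4.72-fold and 4.67-fold in KO, against 12.2-fold and 7.85-fold in WT, for COX6A. The excess was 8.47-fold and 9.49-fold in KO, against 16.2-fold and 10.0-fold in WT, for COX8, and 2.07-fold and 2.20-fold in KO, against 2.20-fold and 2.47-fold in WT, for COX7A.

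**Figure D2:**
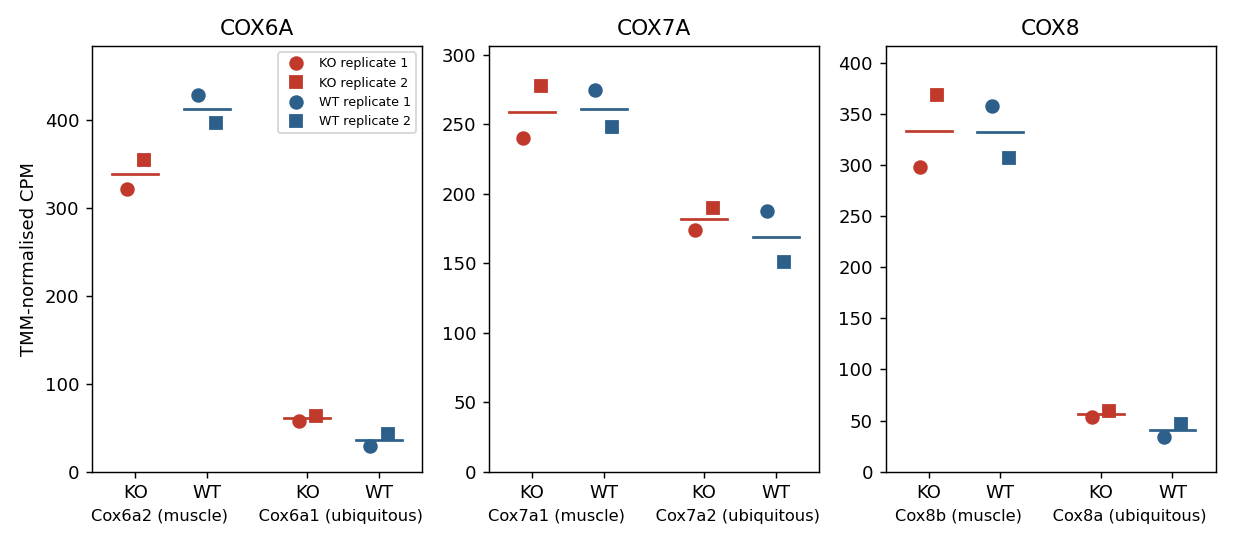
TMM-normalised CPM of the muscle and ubiquitous isoforms of COX6A, COX7A and COX8 in each of 4 libraries, with lines at group means. Cox6a1 and Cox8a are higher in both KO libraries than in both WT libraries, and Cox6a2 is lower in both, while the groups overlap for Cox7a1, Cox7a2 and Cox8b.

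**Figure D3:**
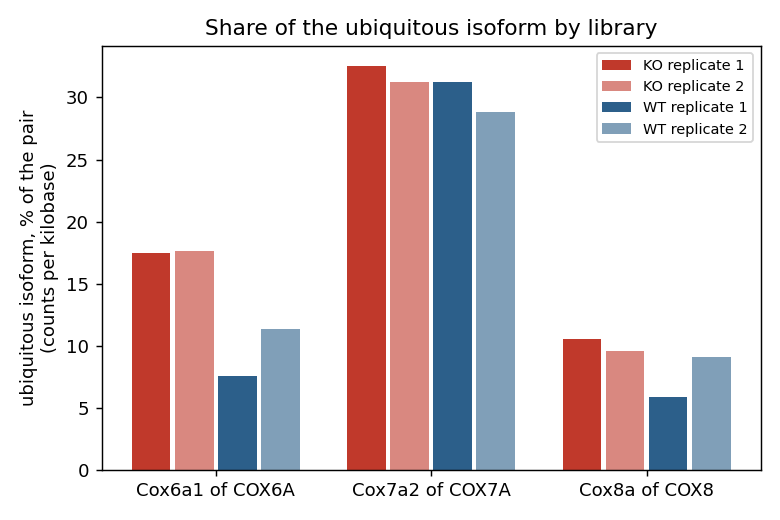
Share of the ubiquitous isoform in each pair, in percent of the counts per kilobase of both isoforms, for each library. Cox6a1 took 17.5% and 17.6% in KO, against 7.57% and 11.3% in WT, and Cox7a2 took 28.8% to 32.5% in all 4 libraries.

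Promoter windows of 3 isoform genes are shown, those of the ubiquitous Cox6a1 and Cox8a, which had the highest estimates, and that of Cox8b, the muscle partner of Cox8a. The table of promoters held no window for Cox6a2, so none is compared with that of Cox6a1. The sequences are RefSeq's on GRCm38.p6, from 250 bases before the start to 50 bases after it, 5′ to 3′ on the gene's strand, at chr5:115348909-115349208 (minus strand) for Cox6a1, chr19:7217567-7217866 (minus strand) for Cox8a and chr7:140900397-140900696 (minus strand) for Cox8b. Capitals mark exact matches on either strand to the motifs searched, which were the NRF1 site CGCATGCG, the ETS site CCGGAAG, the YY1 site AAGATGGCG, the site TCAAGGTCA of oestrogen-related receptors, the E-box CAGCTG and the MEF2 site CTATTTATA.
Cox6a1: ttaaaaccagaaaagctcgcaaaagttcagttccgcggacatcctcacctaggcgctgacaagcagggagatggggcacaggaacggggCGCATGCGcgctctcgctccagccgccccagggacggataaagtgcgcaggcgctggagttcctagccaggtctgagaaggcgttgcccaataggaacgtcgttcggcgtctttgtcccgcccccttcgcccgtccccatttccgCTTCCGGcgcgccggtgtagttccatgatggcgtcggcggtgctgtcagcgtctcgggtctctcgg
Cox8a: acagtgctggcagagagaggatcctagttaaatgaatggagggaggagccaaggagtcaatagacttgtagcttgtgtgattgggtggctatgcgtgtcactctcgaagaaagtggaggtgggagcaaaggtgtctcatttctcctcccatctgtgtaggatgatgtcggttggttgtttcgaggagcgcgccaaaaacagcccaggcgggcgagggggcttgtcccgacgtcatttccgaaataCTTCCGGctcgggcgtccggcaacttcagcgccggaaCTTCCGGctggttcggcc
Cox8b: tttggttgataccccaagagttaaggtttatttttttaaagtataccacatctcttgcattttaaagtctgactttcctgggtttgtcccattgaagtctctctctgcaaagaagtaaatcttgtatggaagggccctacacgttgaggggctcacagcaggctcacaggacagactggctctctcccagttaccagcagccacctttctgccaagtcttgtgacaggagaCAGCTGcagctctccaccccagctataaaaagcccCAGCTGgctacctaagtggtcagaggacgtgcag
The Cox6a1 window held 32 CG dinucleotides with 1 NRF1 and 1 ETS match, and the Cox8a window held 19 with 2 ETS matches. The Cox8b window held 2 CG dinucleotides and 2 E-box matches. The Cox7a2 window held 20 CG dinucleotides and the Cox7a1 window 7, with none of these motifs in either. The median was 7 over all 32851 windows of this length and 18.5 over the 34 windows of the 31 members in the table. Of all windows, 1.87% held the NRF1 site, 8.86% the ETS site, 1.40% the YY1 site, 0.423% the oestrogen-related receptor site, 16.3% the E-box and 0.429% the MEF2 site. Among the 31 members, 8 held the NRF1 site (Atp5g2, Atp5j, Atp5k, Atp5l, Cox6a1, Cycs, Uqcr11 and Uqcrc1), 10 the ETS site, 2 the YY1 site (Atp5j and Atp5j2), 1 the oestrogen-related receptor site (Atp5g3), 2 the E-box (Atp5b and Cox8b) and 0 the MEF2 site. The NRF1 count depends on the form of the motif: a longer form of 10 letters, searched first, was held by 4 members (Atp5g2, Atp5k, Cox6a1 and Uqcrc1) and 0.971% of all windows. The 10-letter forms of YY1 and MEF2 were held by 1 and 0 members and by 0.852% and 0.164% of all windows. No motif overlapped another in the printed windows. These counts are of genes, while the shares of all windows are of windows. The NRF1, ETS and YY1 sites contain CG, which the members' windows held more of (median 18.5 against 7). The part of CG content in the motif counts was not tested. A match is a description of letters and not of binding.

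The remaining subunits of complex IV did not pass the test. Ndufa4, once counted with complex I and now placed in complex IV, had the highest level per length of the complex with the median transcript length, and 439.5 and 475 CPM in KO, against 449 and 388 CPM in WT, and the groups overlapped (log2 fold change 0.13 ± 0.14). Cox5a, a nuclear subunit on the matrix side, had the lowest estimate, with 94.4 and 89.0 CPM in KO, against 113 and 114 CPM in WT. Both KO libraries were lower, with a log2 fold change of -0.30 ± 0.12 (95% interval -0.57 to -0.04) and an edgeR adjusted p = 0.277. Cox5b, which holds a zinc ion, had 206 and 241 CPM in KO, against 282 and 261 CPM in WT (-0.28 ± 0.14, adjusted p = 0.399). Of the 50-base stretches in Cox5a transcripts, 32.05% also occur in transcripts of other genes, so part of its count is uncertain. The same holds for Cox5b (21.8%) and Cox7c (23.0%). The other 5 subunits, Cox4i1, Cox6b1, Cox6c, Cox7b and Cox7c, had overlapping groups and log2 fold changes from -0.02 to 0.10. Cox7b is the 1 member on the X chromosome and had 403 and 366 CPM in KO, against 404 and 369 CPM in WT, libraries that differ in sex.

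Complex III had the narrowest range of estimates of the 3 complexes, with 0 of 9 genes called by edgeR or DESeq2 and 0 at an unadjusted p below 0.05 in edgeR. The edgeR adjusted p ran from 0.680 to 0.983, and the log2 fold changes from -0.13 to 0.15 (median 0.027). Uqcrc1, a core protein on the matrix side, had the highest estimate of the complex, with 294 and 304 CPM in KO, against 286 and 252 CPM in WT (0.15 ± 0.13, 95% interval -0.14 to 0.45). Its partner Uqcrc2 had 196 and 162 CPM in KO, against 176 and 173 CPM in WT, with overlapping groups. Estimates of the electron carriers had opposite signs, and their 95% intervals included 0. Cyc1, which carries the haem of cytochrome c1, had 136 and 143 CPM in KO, against 131 and 121 CPM in WT (0.15 ± 0.13, adjusted p = 0.680), and both KO libraries were higher. Uqcrfs1, the iron-sulphur Rieske protein, had 135 and 117 CPM in KO, against 145 and 132 CPM in WT (-0.13 ± 0.13, adjusted p = 0.743), and the groups overlapped. Among the small subunits, Uqcr11 had the highest level per length, with 232 and 272 CPM in KO, against 277 and 223 CPM in WT, a spread within each group that exceeded the difference of the means. Uqcrb, Uqcrq, Uqcrh and Uqcr10 had log2 fold changes from -0.12 to 0.04. Cycs, the soluble carrier between complexes III and IV, had 278 and 273 CPM in KO, against 290.3 and 264 CPM in WT (-0.01 ± 0.13, 95% interval -0.29 to 0.28, adjusted p = 0.986). Both KO libraries lay between the 2 WT libraries. Of the 50-base stretches in Cycs transcripts, 28.5% also occur in transcripts of other genes, so its count is uncertain. The same holds for Uqcrc2 (24.2%) and Uqcrb (43.4%).

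In complex V, 0 of 15 genes were called by edgeR or DESeq2 and 2 had an unadjusted p below 0.05, 1 in each direction. The median log2 fold change was 0.060. The catalytic head holds Atp5a1 and Atp5b, the alpha and beta subunits that bind nucleotides, and Atp5c1, Atp5d and Atp5e of the central stalk. Atp5b was the member with most reads, at 1192 and 1045 CPM in KO, against 1168 and 1052 CPM in WT (log2 fold change 0.01 ± 0.14), and the groups overlapped. Atp5a1 had 896 and 818 CPM in KO, against 799.7 and 778 CPM in WT (0.12 ± 0.13, adjusted p = 0.775). Atp5e had the highest standard error of a log2 fold change of the 39 genes (0.23), with 145 and 192 CPM in KO, against 253 and 162 CPM in WT. Estimates in the peripheral stalk, which holds the head in place, had different signs. Atp5j of this stalk had the lowest estimate of the 39 genes, with 109.7 and 121 CPM in KO, against 156 and 134 CPM in WT (-0.33 ± 0.13, 95% interval -0.62 to -0.03, adjusted p = 0.287), and the groups did not overlap. The other stalk genes Atp5f1, Atp5h and Atp5o had log2 fold changes between 0.09 and 0.19. Of the 50-base stretches in Atp5f1 and Atp5h transcripts, 37.55% and 36.86% also occur in transcripts of other genes, so their counts are uncertain. Atp5o, the oligomycin sensitivity protein, had 66.8 and 69.5 CPM in KO, against 58.3 and 61.9 CPM in WT, with no overlap and an adjusted p = 0.565.

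The membrane part of complex V held the highest estimate of the complex. Atp5l, subunit g, had 241 and 229 CPM in KO, against 188 and 194 CPM in WT (log2 fold change 0.30 ± 0.13, 95% interval 0.02 to 0.58), and both KO libraries were higher. It did not pass the edgeR test (adjusted p = 0.308), and 84.8% of its possible 50-base stretches also occur in transcripts of 14 other genes, 12 of them annotated pseudogenes, so its count is uncertain. Atp5k, subunit e, had the highest level per length of complex V, with 286 and 347 CPM in KO, against 299 and 298 CPM in WT (0.08 ± 0.14), and the WT libraries lay between the KO libraries. Atp5g1, Atp5g2 and Atp5g3 encode the same c subunit of the rotating ring behind different import sequences. Atp5g1 had 350.3 and 363 CPM in KO, against 354 and 331 CPM in WT (0.06 ± 0.13, adjusted p = 0.902). Atp5g2 had 70.6 and 80.3 CPM in KO, against 87.1 and 75.8 CPM in WT (-0.11 ± 0.13, adjusted p = 0.793). Atp5g3 had 141 and 159.7 CPM in KO, against 193 and 156 CPM in WT (-0.21 ± 0.14, adjusted p = 0.571). The groups overlapped for each of these 3 genes. The count of Atp5g2 is uncertain, since 38.35% of its 50-base stretches also occur in transcripts of other genes. Of their summed reads Atp5g1 held 62.3% and 60.2% in KO, against 55.8% and 58.8% in WT, but per kilobase Atp5g3 held the most, with 45.6% and 46.7% in KO, against 50.8% and 48.1% in WT. That order rests on the long annotated Atp5g1 transcripts.

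Levels can be compared between genes only per length, here as CPM per kilobase, with the median length of the annotated protein-coding transcripts. Averaged over the 4 libraries, the 39 genes ran from 84.5 (Cox6a1) to 956 (Atp5k) with a median of 385. In complex III the level ran from 97.0 for Uqcrfs1 to 564 for Uqcr11, in complex IV from 84.5 for Cox6a1 to 952 for Ndufa4, and in complex V from 90.3 for Atp5o to 956 for Atp5k. Cox8a (88.2), Cycs (88.4) and Atp5o (90.3) stood next to Cox6a1 at the low end. The muscle isoforms Cox8b (927 ± 139.5 in KO and 924 ± 98.7 in WT), Cox7a1 (589 ± 60.3 in KO and 595 ± 43.2 in WT) and Cox6a2 (498 ± 34.1 in KO and 607 ± 32.6 in WT) stood above the median, in CPM per kilobase (SD, n = 2 each). The orders within the 3 isoform pairs were the same with the length of merged exons and with that of the principal transcript. Neighbours in the order differed by less than their spread between libraries in many cases, such as Ndufa4 and Cox8b. The level of Uqcrc1 was 172 with the principal transcript and 533 with the median transcript, so its place in the order depends on the length used. The extremes depend on it too. Cox8b (926) stood highest of all 39 genes with both other lengths, and Atp5o stood lowest, at 32.5 with merged exons and 76.5 with the principal transcript. The count of Atp5o is uncertain, since 47.6% of its 50-base stretches also occur in transcripts of other genes. Its second, overlapping locus covers 12.3% of its exon length on the same strand. In complex III the lowest was Uqcrq (54.9) with merged exons and Cyc1 (87.1) with the principal transcript, and in complex IV Cox5a (48.8) was lowest with merged exons. Uqcr11, Atp5k and Atp5o kept their places at the ends of their own complexes with all 3 lengths.

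**Figure D4:**
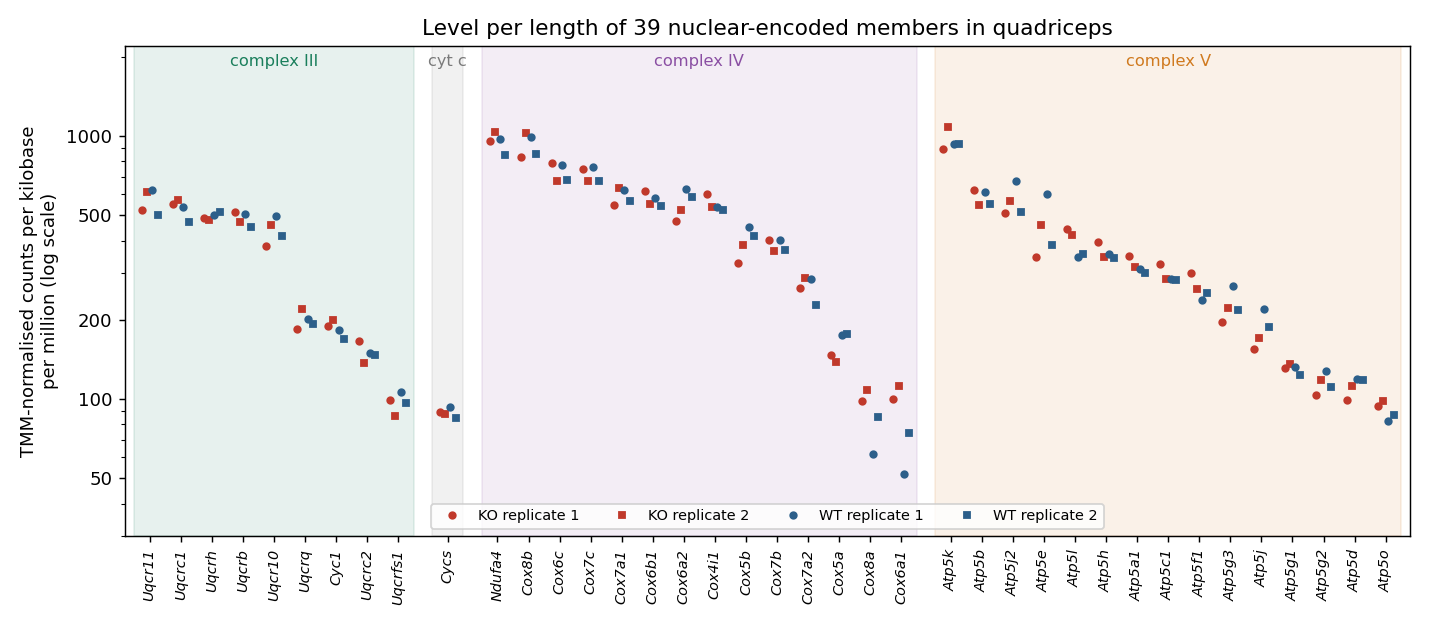
TMM-normalised CPM per kilobase (log scale, median transcript length) of the 39 genes in each of 4 libraries, sorted within each complex. KO libraries (red) and WT libraries (blue) overlap for 24 of the 39 genes, Atp5k and Ndufa4 stand highest, and Cox6a1 stands lowest with its WT points below its KO points.

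Summed over the 39 genes, the KO libraries lay between the WT libraries, at 10708 and 10589 CPM in KO, against 11036 and 10075 CPM in WT. In 32 of the 39 genes WT replicate 1 was above WT replicate 2. The median of the 39 genes' log2 CPM, each centred on its own mean, was 0.0094 and -0.0063 in KO, against 0.068 and -0.068 in WT. The spread between the 2 WT libraries was thus wider than the distance between the group means.

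Among other genes of the pathway, edgeR and DESeq2 called 0 in each list. Of 5 tested mitochondrially encoded subunits of these complexes 0 were called and 0 had an unadjusted p below 0.05. Their median log2 fold change was -0.23, with 1 estimate positive and 4 negative. The smallest p was that of mt-Co2, at 31.5 and 26.6 CPM in KO, against 41.2 and 32.1 CPM in WT (-0.33 ± 0.15, adjusted p = 0.366). Counted levels differed widely within this list, and the reason was not tested. By contrast, mt-Co1 had 16395 and 12837 CPM in KO, against 14479 and 14131 CPM in WT (0.03 ± 0.15). For mt-Cytb the values were 2863 and 2471 CPM in KO, against 2939 and 3329 CPM in WT (-0.23 ± 0.14). Assembly factors had 0 called of 6 for complex III (0 at an unadjusted p below 0.05, led by Uqcc2 at -0.25 ± 0.13), 0 of 22 for complex IV (1, Cox10 at 0.40 ± 0.16) and 0 of 5 for complex V (2, led by Tmem242 at 0.39 ± 0.13, adjusted p = 0.161). Of 8 tested further subunits, isoforms and regulators 0 were called and 1 had an unadjusted p below 0.05. That was Atp5mpl, a small membrane subunit of complex V, with 125 and 142 CPM in KO, against 209.5 and 145 CPM in WT (-0.41 ± 0.17, adjusted p = 0.300). The testis forms Cyct and Cox8c and the isoform Cox7b2 had 0 counts in every library. Cox4i2, the lung isoform of subunit 4, had 1.38 and 1.19 CPM in KO, against 1.42 and 0.702 CPM in WT, and Atp5if1, the inhibitor of the ATP synthase, had 14.2 and 12.8 CPM in KO, against 14.1 and 15.8 CPM in WT (-0.15 ± 0.15, adjusted p = 0.753). Complex II had 0 of 4 called and 1 with an unadjusted p below 0.05, Sdhd (0.29 ± 0.12, adjusted p = 0.307). The transcriptional regulators of respiratory genes had 0 of 14 called and 0 with an unadjusted p below 0.05 (median log2 fold change -0.098), led by Polrmt, the mitochondrial RNA polymerase, at 12.8 and 10.7 CPM in KO, against 14.5 and 13.8 CPM in WT (-0.26 ± 0.16, adjusted p = 0.537).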

How the data were processed

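RNA of 4 quadriceps libraries (2 KO, 2 WT) was measured by RNA-seq with a TruSeq v2 kit, per the labels' protocols. The authors deposited raw read counts for each gene and library, and the first count column of each file was used. The submitters' processing notes name Trimmomatic, STAR, DESeq2 and GRCm38 (mm10). Their versions, the annotation release and the treatment of reads with several matching places were not stated in what was read here, and the kit does not mark strand, so counts of genes with close copies or antisense partners are uncertain. Of the 39 genes, 14 shared no 50-base stretch with transcripts of another gene and 7 shared over 30%. GENCODE M21 (GRCm38) named 55480 of 55573 IDs.

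Genes were kept by filterByExpr of edgeR 4.0.16 (R 4.3.3; minimum count 10, minimum total 15), scaled by TMM and tested with the robust quasi-likelihood F test, with genotype as the only term and calls at an adjusted p below 0.05. Each standard error is the log2 fold change over the root of F. Alternatives were DESeq2 1.42.0, other scalings, no filter, other transcript lengths, a replicate block and leaving out each library. Named were all 39 genes, with values per library for the isoforms, the Atp5g genes, Cycs and the extremes of each complex, and the gene with the smallest p of each other pathway list. For marker lists, sums or single genes are given, and lists of endothelial, macrophage and fibroblast markers are not described. Values of Uqcrc2, Cox5b, Cox7b, Atp5a1, Atp5b, Atp5e, Atp5o, Cox4i2, Atp5if1, mt-Co1 and mt-Cytb were added after they were seen. The NRF1, YY1 and MEF2 motifs were shortened after longer forms had been searched, and both counts are given. The members and lists were chosen with earlier results of these data known.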

Additional observations from a re-analysis of the deposited data

How the results depend on the processing

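The count of called genes among the 39 was 1 (Cox6a1) as reported, with the scaling of DESeq2, with the DESeq2 Wald test, without mitochondrial genes and Rn7sk, with robust dispersions and with the replicate block. It was 2 (Cox6a1 and Cox8a) with no filter on low counts and 0 with the quasi-likelihood step without robust estimation. That setting and robust dispersions were added after the data were seen. Robust dispersions returned the values of the main fit (323 calls over all genes, edgeR adjusted p = 0.0418 for Cox6a1), so they were no separate check. Leaving out 1 library gave 0 to 2 calls, with 0 in every case but without WT replicate 2, and 223 to 415 calls over all genes. The median log2 fold change of the 39 genes was -0.055 to 0.090 when 1 library was left out, the highest without WT replicate 1, and the cause was not tested. The sign of 7 to 8 of the 39 estimates changed when 1 library was left out, none with an unadjusted p below 0.05 in all 4 libraries. The replicate numbers are not said to pair the libraries. Deviations of same-numbered libraries correlated at 0.038 over 13076 genes and at -0.255 over the 39 members. The replicate block gave an adjusted p = 0.0223 for Cox6a1, changed no call among the 39 and left 314 calls against 323 over all genes. The isoform log2 ratio differences were negative in every setting run. The replicate block was no check on them, since with 1 KO and 1 WT library per number it cannot change a difference of means. The median level per length was 385 CPM per kilobase as reported, 124 with merged exons and 320.2 with principal transcripts (added after the data were seen), since the lengths divided by are longer. With 2 libraries in each group, small differences such as those of Cox8a and Cox5a were not resolved.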
